A study of Mus musculus with 2 samples.

Results

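The distal ends of 15 mouse autosomes were examined for copy number in 2 *H19*-deleted haploid embryonic stem cell lines. An end was taken as every probe of the array that starts within 2 Mb of the highest probe end on its chromosome, on the mm9 build, for chromosomes 1 to 19 other than 7, 8, 11 and 12. The choice used position and no measured value. It gave 2270 of the 170305 distinct probes, from 69 on chromosome 17 to 199 on chromosome 2 with a median of 150 per end, and the rest of the same 15 chromosomes held 125065. All 2270 had a usable ratio on both arrays.

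Both lines, H19Δ1 and H19Δ2, are androgenetic haploid ESC lines (AG-haESCs), that is, ESCs from embryos that carry only a paternal genome, and each is 1 clone. They were made from AGH-OG-3, the wild-type AG-haESC line, by CRISPR-Cas9-assisted homologous recombination that put a *loxP*-flanked *PGK-neo* cassette in place of the *H19* unit and its imprinting control region. The AGH-OG-3 line carries an *Oct4-eGFP* transgene, and both H19Δ clones were sorted repeatedly for haploid cells. All 3 lines were labelled haploid and were grown in the same medium with serum, leukemia inhibitory factor, CHIR99021 and PD0325901, and feeder cells were depleted by letting them settle before harvest. Genomic DNA of each H19Δ line in Cy5 was hybridized with AGH-OG-3 DNA in Cy3 to a SurePrint G3 Mouse CGH array, with 1 array per line and no dye swap. Slide and scan were shared by both arrays. A value below is the log2 of Cy5 over Cy3 after centring on the median autosomal probe, so 0 is the typical autosomal level and a negative value means less DNA in the H19Δ line than in AGH-OG-3. With 1 array per line there was no replicate check and no test. Errors are SDs or standard errors (SEs) over the probes of a region, which share 1 hybridization, and the number of arrays limits the precision.

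Mouse autosomes have their centromere next to one telomere, so every autosome has a single long arm and the distal end is the tip far from the centromere. The DNA next to a telomere is rich in repeats and in gene families with many similar copies. On this array the ends were nevertheless covered about as densely as the rest: the median distance between neighbours in an end was 0.969 times that of its rest in the median end, and shorter than in the rest in 8 of 15 ends. In comparative genomic hybridization, loss of a chromosome tip appears as a lower ratio that runs on to the last probe, and gain of one as a higher ratio. The last 3 protein-coding genes in the GRCm38 order of RefSeq give an idea of what lies there: *Cd46*, *Cr1l* and *Cr2*, genes of complement regulators and receptors, close chromosome 1, the vomeronasal receptor genes *Vmn2r85*, *Vmn2r86* and *Vmn2r87* close chromosome 10, and *Depdc1a*, *Rpe65* and *Wls* close chromosome 3. That build is not the one of the probes, so these genes are named as neighbours of the chromosome end and were not placed on probes.

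The files name no genes, so no probe was assigned to *H19* and the deletion was not checked by position. The probe at chr7:149761403-149761462, picked for its low values as one of the 2 lowest of chromosome 7 in both lines, had a ratio of -3.67 in H19Δ1 and -3.70 in H19Δ2, which describes that probe and checks neither label. Of the spots on each array, 99.9% were well above background in both channels, and the noise of a single probe estimated from neighbouring probes was 0.121 and 0.119. Among the members, 2 readings for H19Δ1 and 3 for H19Δ2, over both channels, were not well above background.

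In both lines the 15 ends together lay at the level of the rest of their chromosomes. The mean level of the ends was -0.0029 ± 0.025 in H19Δ1 and -0.0081 ± 0.020 in H19Δ2 (SD over ends, n = 15). The difference between an end and the rest of its chromosome averaged -0.0011 ± 0.024 in H19Δ1, with 9 ends above and 6 below the rest, and -0.0014 ± 0.024 in H19Δ2, with 7 above and 8 below. These means were far smaller than the spread between ends. For scale, the 928 other 2 Mb windows of these chromosomes that hold at least 50 probes differed from the rest of their chromosome by -0.00053 ± 0.034 in H19Δ1 and -0.0021 ± 0.039 in H19Δ2 (SD over windows). No end was 0.1 or more from the rest of its chromosome in either line, where 0.53% of the 943 windows, ends included, were that far in H19Δ1 and 0.954% in H19Δ2. At 0.05 or more there was 1 end in H19Δ1, that of chromosome 13, against 2.55% of the windows, and 1 end in H19Δ2, that of chromosome 6, against 6.57% of the windows. The other 14 ends averaged 0.0037 ± 0.015 in H19Δ1 (range -0.018 to 0.025) and 0.0034 ± 0.016 in H19Δ2 (range -0.019 to 0.032), all closer to the rest than 1 SD of the windows.

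**Figure D1:**
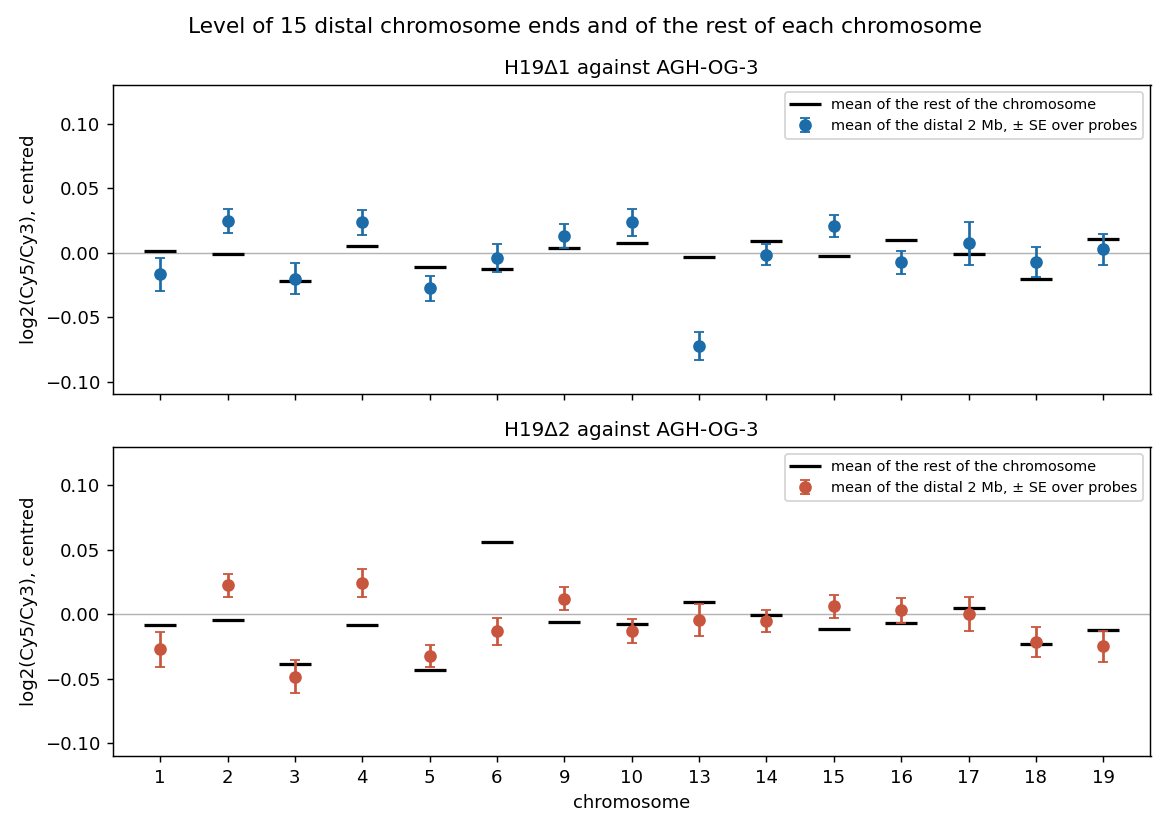
Mean log2 ratio of each of 15 distal ends (points, with the SE over its probes) and of the rest of the same chromosome (black dashes), by chromosome, in H19Δ1 (top) and H19Δ2 (bottom). The end of chromosome 13 at -0.072 lies apart from the others in H19Δ1, and in H19Δ2 it is the rest of chromosome 6, at 0.056, that lies apart.

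Of all ends, that of chromosome 13 had the lowest level, in H19Δ1. It spans chr13:118307728-120283183 and holds 124 probes. The last 3 protein-coding genes of this chromosome in the GRCm38 order are *AF067061*, *BC147527* and *Tcstv3*, the last of which belongs to a gene family known for expression at the 2-cell stage of the embryo. In H19Δ1 its mean was -0.072 ± 0.123 (SD over 124 probes; SE 0.011), and the rest of the chromosome was at -0.0031. The difference of -0.069 corresponds to a change of -4.70% in signal relative to the rest. In H19Δ2 the same end was at -0.0043 ± 0.135 with the rest at 0.0093, a difference of -0.014. The end was thus low on one array and near the typical autosomal level on the other.

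The whole distribution of the probes was displaced, not a few of them. Of the 124 probes, 89 (71.8%) lay below the median of the rest in H19Δ1 and 63 (50.8%) in H19Δ2. The tenth percentile of the end was -0.208 against -0.161 in the rest in H19Δ1, and the ninetieth was 0.088 against 0.158, so both tails sat lower. Each of the 8 quarter-megabase bins of the end was below the rest in H19Δ1, from -0.101 to -0.052. In H19Δ2 the bins ranged from -0.059 to 0.027, with 6 of 8 below the rest. Probe by probe, H19Δ2 was higher than H19Δ1 at this end by 0.068 ± 0.161 (SD, SE 0.014), the largest difference between lines among the 15 ends. For the 14 others this difference lay between -0.036 and 0.011. Both arrays used the same reference DNA.

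The low level did not start at the end itself. Segmentation of the H19Δ1 ratios divided chromosome 13 into 2 stretches, the distal one at chr13:104336943-120283183, which is 15.9 Mb long, holds 1044 probes and had a mean of -0.068 ± 0.124 (SD). The stretch before it, of 6544 probes, was at 0.0059. In windows of 2 Mb from the last probe, the 8 of the distal stretch ranged from -0.087 to -0.056, and the 51 others from -0.021 to 0.026. The border between these groups was fitted to the same H19Δ1 ratios, so the gap between them is no separate support for it. Set against the 2 Mb next to it, the end differed by 0.0021, and against the other probes of the distal stretch by -0.0053. The end was therefore as low as its surroundings, and its distance from the whole rest is that of the 15.9 Mb stretch.

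Read in H19Δ2, the same 15.9 Mb was at 0.011 ± 0.137 and the chromosome before it at 0.0088. It held a short raised stretch there, 55 probes at chr13:107026849-108071279 that averaged 0.278 in H19Δ2 but -0.061 in H19Δ1, which lies 12.2 Mb or more from the last probe. Distal to this stretch H19Δ2 was at -0.0065 over 800 probes, while H19Δ1 was at -0.071 over the same probes. The border of the low stretch in H19Δ1 stayed at 15.9 Mb from the last probe under each segmentation setting tried except a penalty factor of 1, which placed the last border at 12.9 Mb. In DNA from many cells, the size of a change per cell and the share of cells that carry it were not measured separately.

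**Figure D2:**
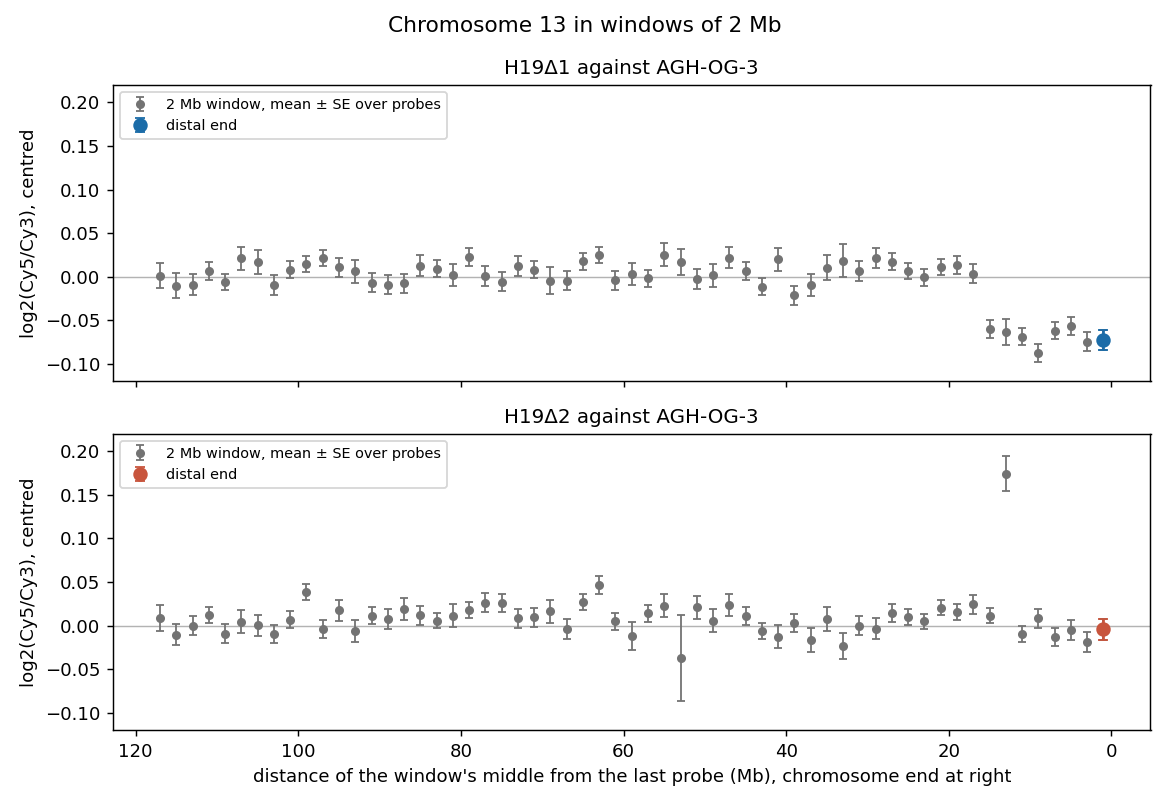
Mean log2 ratio of the 59 windows of 2 Mb on chromosome 13, with the SE over probes, against the distance of the window from the last probe; the distal end is coloured. In H19Δ1 (top) the last 8 windows lie between -0.087 and -0.056 below all others, and in H19Δ2 (bottom) the end lies among the other windows, with 1 window at 0.174.

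Chromosome 6 had an end that differed from its rest by as much in H19Δ2, but there the rest was high and the end was not low. This end spans chr6:147523790-149512014 with 142 probes, and the chromosome closes with *Resf1*, *Bicd1* and *Gm21814* in the GRCm38 order. *Bicd1* encodes an adaptor of the dynein motor. In H19Δ2 the end had a mean of -0.013 ± 0.124 (SD, SE 0.010) and the rest of the chromosome 0.056, a difference of -0.069, or -4.69% in signal. In H19Δ1 the end was at -0.0041 ± 0.131 and the rest at -0.013, a difference of 0.0088. The level of the end thus moved by 0.0091 between the lines, and that of the rest by 0.069.

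The raised part of chromosome 6 was proximal. The 3999 probes before chr6:60219654 had a mean of 0.142 in H19Δ2, and all 29 windows of 2 Mb that reach into this part were above 0, from 0.046 to 0.45. Its highest long stretch, 289 probes at chr6:55782881-60204117, averaged 0.448 in H19Δ2 and was low, at -0.503, in H19Δ1. Over the 89.3 Mb distal to this stretch the means were -0.00055 in H19Δ2 and 0.0026 in H19Δ1, and the 44 windows there stayed between -0.037 and 0.031 in H19Δ2. The first 2.29 Mb of this distal part, 177 probes, was a segment still at 0.074 in H19Δ2. The end lay within the range of the 44 windows. Against the 2 Mb next to it, the end differed by -0.039, and against the other probes of its own last segment by -0.017, so its distance from the rest was smaller with the proximal part left out of the comparison.

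**Figure D3:**
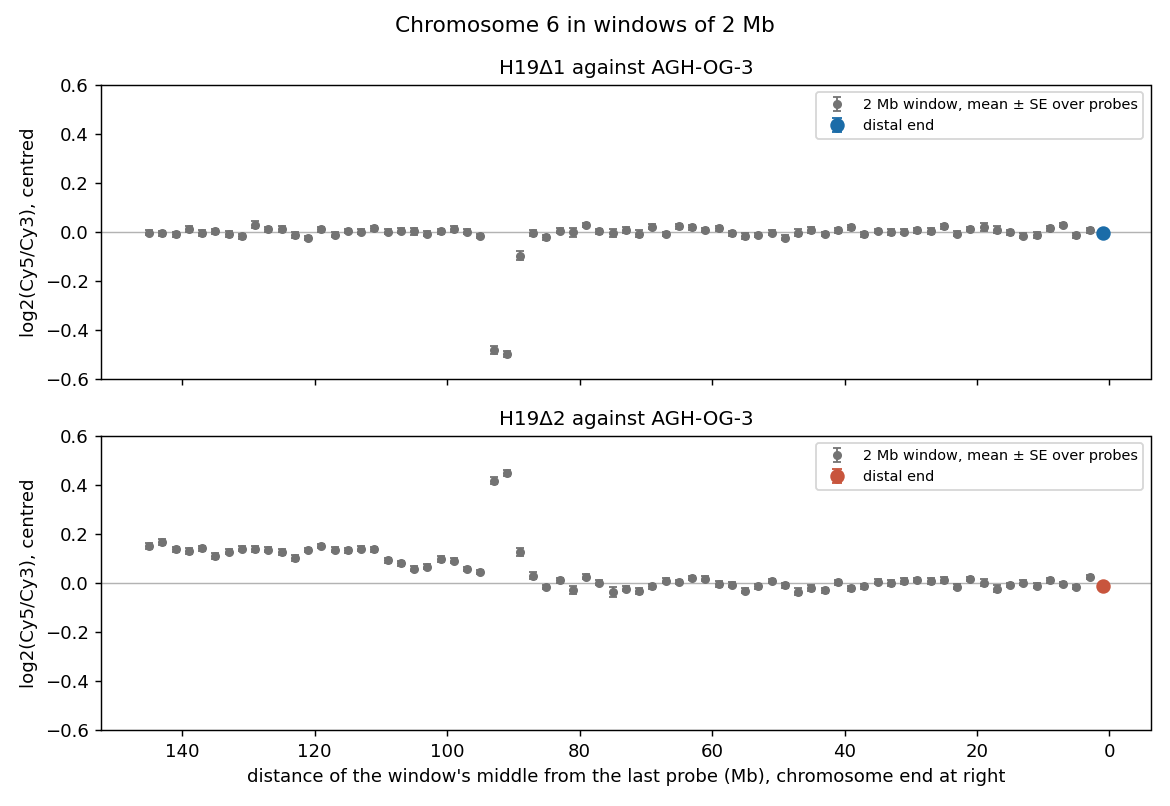
Mean log2 ratio of the 73 windows of 2 Mb on chromosome 6, with the SE over probes, against the distance from the last probe; the distal end is coloured. In H19Δ2 (bottom) all 29 proximal windows are above 0 and the 44 distal ones lie between -0.037 and 0.031, and in H19Δ1 (top) the end is level with all but the short low stretch.

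After these came the ends of chromosomes 4 and 2, both slightly above their rest. At chr4:153634984-155629081, the end held 181 probes with a mean of 0.023 ± 0.129 (SD) in H19Δ1 and 0.024 ± 0.147 in H19Δ2, and the rest was at 0.0054 and -0.0079. The differences were 0.018 and 0.032, with SEs of the end mean of 0.0096 and 0.011. The chromosome closes with *Noc2l*, *Samd11* and, as its last gene in GRCm38, the vomeronasal receptor gene *Vmn2r129*. Of the 75 windows of chromosome 4, 65 were below the end in H19Δ1 and 72 in H19Δ2. The end lay in a last segment slightly higher than the other probes of the chromosome in both lines. The borders of these segments were fitted to the same ratios and the segments include the end, so they are no separate support. In H19Δ1 the last 25.4 Mb formed a segment at 0.019 over 1981 probes, against 0.0024 for the other probes of the chromosome, and in H19Δ2 the last 21.7 Mb formed one at 0.0091 over 1673 probes, against -0.011. Set against the neighbouring 2 Mb, the end minus its neighbour was -0.019 in H19Δ1 and 0.0099 in H19Δ2.

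The end of chromosome 2, at chr2:179737060-181722086, held the most probes, 199. It averaged 0.024 ± 0.133 in H19Δ1 and, in H19Δ2, 0.022 ± 0.128, with the rest at -0.0012 and -0.0046, which gave differences of 0.025 and 0.027 and SEs of 0.0094 and 0.0091. Among the last genes of this chromosome is *Polr3k*, which encodes a subunit of RNA polymerase III. Of the 89 windows of the chromosome, 84 lay below the end in H19Δ1 and 86 in H19Δ2. The distance of these 2 ends from their rest was below 1 SD of the 2 Mb windows, which is 0.034 in H19Δ1 and 0.039 in H19Δ2. Windows of gained and lost stretches widen that SD, so it does not show that these ends are ordinary.

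**Figure D4:**
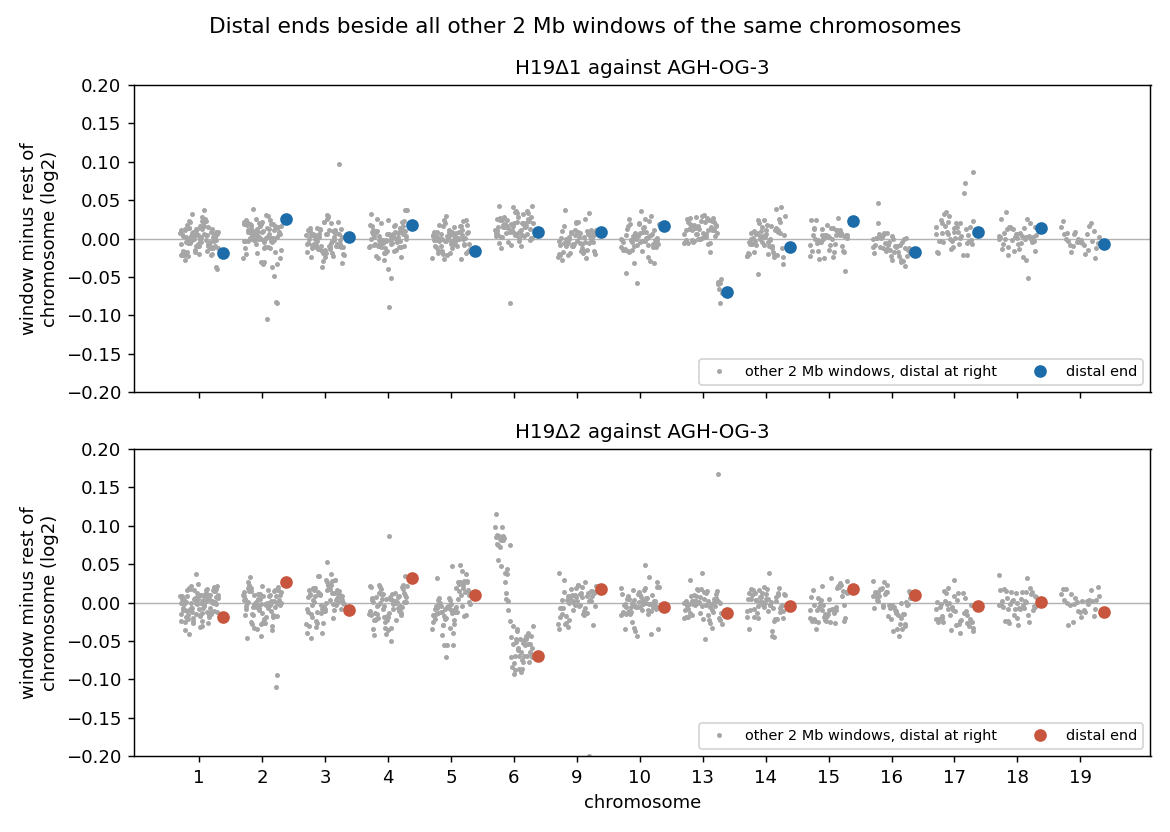
Difference from the rest of the chromosome for each distal end (coloured) and for the other 2 Mb windows (grey, distal windows at the right of each column), by chromosome, in H19Δ1 (top) and H19Δ2 (bottom). The axis is cut at 0.2, which leaves out 4 windows in H19Δ1 and 5 in H19Δ2, none of them an end; the ends other than those of chromosomes 13 (H19Δ1) and 6 (H19Δ2) lie between -0.019 and 0.032.

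The remaining 11 ends lay within 0.025 of their rest in both lines. On chromosome 1 the end (chr1:195197585-197188537, 96 probes) was lower than its rest on both arrays, by -0.018 in H19Δ1 and -0.019 in H19Δ2, with SEs of 0.013 and 0.014. That of chromosome 15 (chr15:101471062-103460314, 185 probes), which closes with *Ppp1r1a*, *Glycam1* and *Mucl2*, was higher by 0.023 and 0.017. For chromosome 9 (chr9:122068127-124061581, 180 probes) the differences were 0.0087 and 0.018. Each of these chromosomes had windows farther out: 11 of the 96 windows of chromosome 1 were lower than its end in H19Δ1 and 13 in H19Δ2, and 3 of the 50 windows of chromosome 15 were higher than its end in H19Δ1 and 9 in H19Δ2.

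At chromosome 3 (chr3:157609358-159598830, 127 probes) the end stood at -0.020 in H19Δ1 and -0.048 in H19Δ2, but the rest of the chromosome was nearly as low, and the differences were 0.0016 and -0.0096. *Wls*, the last gene here, encodes the carrier of Wnt proteins to the cell surface, and *Rpe65* before it an enzyme of the visual cycle. Likewise the end of chromosome 5 (chr5:150526834-152519030, 150 probes) was at -0.028 and -0.032 with the rest at -0.011 and -0.043. The differences of -0.016 and 0.010 have opposite signs. At chromosome 18 (chr18:88747788-90744509, 133 probes) the end was at -0.0072 and -0.022, and the differences were 0.013 and 0.0011.

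The ends of chromosomes 10, 14, 16, 17 and 19 were within 0.018 of their rest in both lines. At chromosome 10 (chr10:127967172-129959362, 178 probes) the differences were 0.016 in H19Δ1 and -0.0053 in H19Δ2, and H19Δ2 was lower than H19Δ1 by 0.036 (H19Δ2 minus H19Δ1 -0.036, SE 0.010), the lowest value of this difference among the ends. Chromosome 14 (chr14:123167110-125164256, 198 probes), whose last genes include *Nalcn*, of a sodium leak channel, and *Fgf14*, gave -0.011 and -0.0044. Chromosome 16 (chr16:96282351-98280304, 179 probes) gave -0.017 and 0.010. The sparsest end was that of chromosome 17 (chr17:93287395-95254967, 69 probes), where neighbouring probes lay a median of 27428 bp apart, 2.66 times as far as in its rest, and its differences of 0.0080 and -0.0044 carry the SEs of 0.016 and 0.013 that go with so few probes. Chromosome 19 (chr19:59331283-61319646, 129 probes) gave -0.0077 and -0.013.

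No segment border fell inside an end in either line, where 4.35% of the 2 Mb windows in H19Δ1 and 6.04% in H19Δ2 held one. Segments were runs of at least 3 probes found by penalised least squares, and there were 79 of them in H19Δ1 and 105 in H19Δ2 over the 15 chromosomes. With so few borders over all windows, their absence from 15 ends says nothing particular of the ends. A penalty factor of 1 in place of 2 put 3 borders into ends in H19Δ1, the last of chromosome 6 among them at 0.088 Mb from the last probe, and 6 in H19Δ2. The last segments were 4.17 to 126.9 Mb long in H19Δ1 and 9.23 to 87.6 Mb in H19Δ2, and held at least 163 and 648 probes. Leaving out chromosome 13 in H19Δ1, their means ran from -0.030 to 0.019 in H19Δ1 and from -0.036 to 0.0092 in H19Δ2. Several last segments were preceded by a run of only 3 probes, as on chromosome 6 in H19Δ2, where the run averaged -0.509. The border nearest to an end was on chromosome 17 in H19Δ1, 4.17 Mb from the last probe, where a stretch of 84 probes at 0.127 gave way to the distal 163 probes at 0.013. On chromosomes 10, 15 and 19 in H19Δ1 and chromosome 18 in H19Δ2 the whole chromosome was 1 segment.

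Closer to the last probe the mean difference from the rest stayed small. Averaged over the 15 ends, the difference from the rest was -0.0056 ± 0.046 (SD over ends) in the last 250 kb in H19Δ1 and -0.0048 ± 0.043 in H19Δ2. Between 1500 and 2000 kb it was 0.0063 ± 0.030 and 0.0010 ± 0.034, and between 2000 and 4000 kb 0.0014 ± 0.027 and 0.0025 ± 0.019. Every mean was smaller than its SD over ends. In H19Δ1, 5 of 15 ends were above their rest in the last 250 kb and 10 between 1500 and 2000 kb. In H19Δ2 the counts were 7 and 6. A trend with distance was not tested. The last 250 kb held 11 to 24 probes per end, so single ends were less exact there. With the end shortened to 0.5 Mb, chromosome 18 was at 0.067 above its rest in H19Δ1, and chromosome 10 was at -0.050 in H19Δ1 and -0.054 in H19Δ2.

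The opposite ends of the same chromosomes, next to the centromere, gave the same picture apart from chromosome 6. The first 2 Mb of probes differed from the rest by -0.0052 ± 0.017 in H19Δ1 and 0.0046 ± 0.047 in H19Δ2 (SD over 15 proximal ends), with the proximal end of chromosome 6 at 0.161 above its rest in H19Δ2. The distal ends of chromosomes 7, 8, 11 and 12, which the choice of chromosomes left out, had means from -0.010 to 0.025 in H19Δ1 and from 0.0057 to 0.062 in H19Δ2. The last value is that of chromosome 12, whose rest stood at 0.238 in H19Δ2, so the tip was 0.176 lower than its rest there (end minus rest -0.176).

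The probes of the ends scattered about as much as those elsewhere. The SD over the probes of an end averaged 0.128 in both lines, and that of the rest 0.135 in H19Δ1 and 0.138 in H19Δ2. The ratio of end to rest was 0.952 ± 0.089 in H19Δ1 and 0.941 ± 0.143 in H19Δ2 (SD over 15 ends), with 10 and 9 ends below 1. The SD of the rest also takes in gained and lost stretches, which the noise between neighbouring probes does not, and by that measure the ratio was 1.01 ± 0.089 and 1.05 ± 0.118. With medians in place of means and the median absolute deviation in place of the SD, the ratio was 1.02 and 0.997. By both of these measures the ratio of the ends was near 1. Among the 928 other 2 Mb windows, the SD ratio was below 1 in 654 in H19Δ1 and 699 in H19Δ2. Its mean over all 928 was 0.958 and 0.931, so an SD ratio below 1 was not particular to the ends. Why it was below 1 was not tested.

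Single ends with a wider scatter were few. At 1.1 times the SD of the rest or more there was 1 end in H19Δ1, against 6.36% of the windows, and 2 ends in H19Δ2, against 5.09%. The end of chromosome 4 had the highest ratio, 1.17 in H19Δ2, with an SD of 0.147 against 0.126, and a ratio of 1.01 in H19Δ1. The end of chromosome 19 had a ratio of 1.102 in both lines, with SDs of 0.137 and 0.136. Its noise between neighbours was 0.898 times that of the rest in H19Δ1 and 1.12 times in H19Δ2. By neighbours the noisiest end was that of chromosome 1 in H19Δ2, at 1.31 times the rest, where the ratio in H19Δ1 was 1.01.

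**Figure D5:**
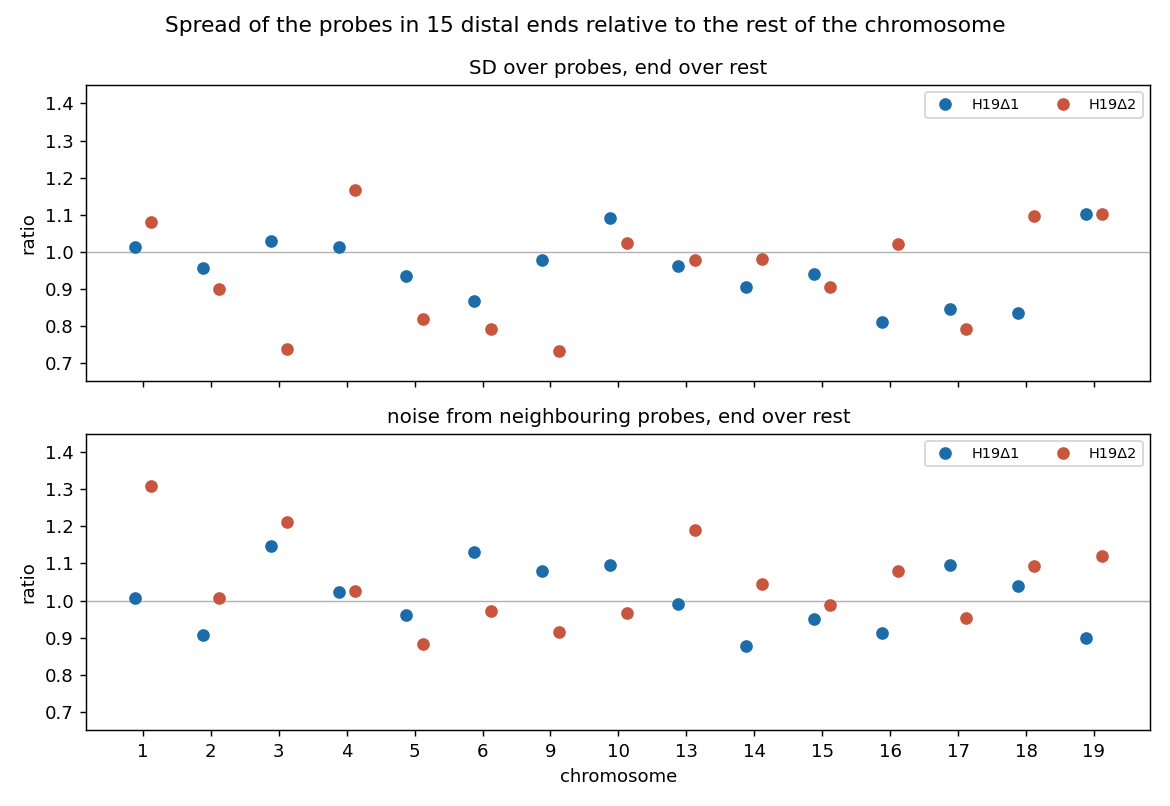
Spread of the probes of each distal end divided by that of the rest of its chromosome, as the SD over probes (top) and as the noise between neighbouring probes (bottom), for H19Δ1 (blue) and H19Δ2 (red). The SD ratios reach from 0.732 (chromosome 9, H19Δ2) to 1.17 (chromosome 4, H19Δ2), and the noise ratio is highest at chromosome 1 in H19Δ2, 1.31.

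Probes of the ends were somewhat dimmer than those elsewhere. The median Cy3 signal of an end, which is AGH-OG-3 DNA, was 0.938 ± 0.070 times that of the rest beside H19Δ1 and 0.942 ± 0.070 times beside H19Δ2, lower in 13 and 12 of 15 ends. The Cy5 signal followed, at 0.952 ± 0.085 and 0.948 ± 0.087, so that the ratio of both was little changed. The signals of the ends were not compared with those of other windows of the same size. Whether a lower signal than the rest is particular to the ends was therefore not tested. In Cy3 chromosome 3 had the dimmest end, at 0.802 and 0.834 times its rest, and chromosome 15 the brightest, at 1.08 and 1.06. Dim probes were noisier in the ends and in the rest alike. In the lowest tertile of Cy3 the SD was 0.145 in the ends and 0.150 in the rest in H19Δ1, and in the highest 0.113 and 0.126. The part of brightness in the level of single ends was not tested.

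Among single probes of the ends, 2 of 2270 were 0.5 or more in size in H19Δ1 and 3 in H19Δ2. Of all probes of chromosomes 1 to 19, 0.31% and 1.26% were that far out. That set takes in chromosome 12, which was left out of the ends and whose rest averaged 0.238 in H19Δ2. These percentages are therefore not a matched background, and whether the ends hold fewer such probes than the rest of their own chromosomes was not tested. The probe at chr3:159544607-159544666, 54.2 kb from the last probe end, was at -0.773 in H19Δ2 and -0.049 in H19Δ1, and its neighbours in H19Δ2 were at -0.127 and -0.112. The one at chr16:97132459-97132518 was at -0.566 in H19Δ2 and -0.196 in H19Δ1. That at chr4:154262954-154263013 was at 0.544 in H19Δ2 and 0.284 in H19Δ1. Neither was joined by its neighbours.

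In H19Δ1 the 2 probes were at chr13:118686862-118686921, with -0.565 against -0.228 in H19Δ2, and at chr2:181624000-181624059, with -0.518 against -0.015. The first lies in the low end of chromosome 13 and was a bright probe, with a Cy3 signal above 66.2% of autosomal probes. The 4 other probes were dim, and those of chromosomes 2 and 3 were below the first percentile of Cy3 on both arrays. The neighbours of the chromosome 13 probe in H19Δ1 were at -0.168 and 0.071. No 2 of the 5 probes were adjacent, and each was measured by 1 spot per array.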

How the data were processed

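The authors deposited 1 Agilent Feature Extraction file per line, version 11.5.1.1 per the file headers and 10.10 per the labels, on mm9. In the deposited processed intensity of each channel, the software had removed background, spatial and multiplicative trends and balanced the dyes by a linear factor. The deposited log ratio is log10 of Cy5 over Cy3, and the deposited series matrix holds the same log10 values. Here log2(Cy5/Cy3) was computed from those intensities, with neither loess nor quantile normalization. Control spots and outlier spots (151 and 211) were left out, repeat spots were averaged, and the autosomal median of an array (0.011 and 0.0080) was subtracted from it. Windows of 2 Mb were laid from the last probe inward. Segments minimised squared error plus, for each border, the product of 2, the noise variance and the log of the probe number of the chromosome. On simulated data only the recovery of planted shifts in end level was checked. The placing of segment borders was not. Python 3.11.15, numpy 2.4.6, pandas 2.3.3, numba 0.67.0, matplotlib 3.10.9, R 4.3.3 and limma 3.58.1 (normexp alternative only) were used.

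All 15 ends were named, in full the 4 farthest from their rest in either line and the 2 with the widest relative scatter, and single probes of 0.5 or more in size; genes were the last 3 protein-coding ones of a chromosome in GRCm38. The ends, thresholds and alternatives were chosen with earlier results of these data known. GC content and probe sequence were not analysed here.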

Additional observations from a re-analysis of the deposited data

How the results depend on the processing

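Of 594 values recomputed under the alternatives for 46 results, 567 stayed within the spread of the ends or windows or within 1.5 times the count. The sign of a difference or level turned in 46 of them, since most ends lay close to 0. The largest value that turned was the end of chromosome 13 in H19Δ1, from -0.069 to 0.0021 against the 2 Mb next to it, and the others were 0.018 or less in size. The mean difference from the rest ran from -0.0052 to 0.0025 in H19Δ1 and from -0.0082 to -0.00011 in H19Δ2. Counts near a threshold moved. Single probes of the ends past 0.5 in size numbered 2 in H19Δ1 and 3 in H19Δ2. They became 10 and 17 with normexp, 1 and 1 with ends of 1 Mb and again with ends of 0.5 Mb, 7 and 14 past 0.4, 0 and 1 past 0.75, and 6 in H19Δ2 with ends of 5 Mb. Ends away from their rest numbered 0 in both lines at 0.1, and 1 and 1 at 0.05. A penalty factor of 1 put 3 segment borders into ends in H19Δ1 and 6 in H19Δ2, where the other settings put 0; the last border of chromosome 6 then lay 0.088 Mb from the last probe in H19Δ1, and that of chromosome 13 lay 5.41 Mb from it in H19Δ2. In H19Δ2 the last border of chromosome 6 moved from 33.7 to 87.3 Mb with a penalty factor of 4 or at least 10 probes per segment. With ends of 5 Mb, chromosome 17 was 0.050 above its rest in H19Δ1. The comparison with the last segment and the border distances were added after seeing the data. No paired analysis was possible because the lines had no replicate arrays. The 0.12 noise of a probe leaves an SE over probes of 0.0083 to 0.016 on an end mean. With 1 array per line and no test, this SE is no detection limit. Neither smaller nor larger shifts were shown to be detectable.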
